A study of Mus musculus with 24 samples.

Results

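The genes described here encode the enzymes and carriers that take glucose to pyruvate, exchange pyruvate with lactate, bring pyruvate into mitochondria and oxidise it in the citrate cycle. They were listed by symbol for their place in these pathways, with earlier results of these data known, and number 39 of the 55254 genes in the count tables. Their expression was followed in nuclear RNA from hippocampus of male C57BL/6N mice aged 6 months, from nuclei sorted by NeuN, a nuclear protein of neurons, into a neuronal (NeuN+) and a non-neuronal (NeuN-) fraction. The 4 genotypes were wild type (WT), Mutyh-/-, Ogg1-/- and the Ogg1-/-Mutyh-/- double knockout (DKO), with 3 libraries of each genotype in each fraction, 24 in all. Ogg1 and Mutyh are DNA glycosylases, which remove bases damaged by oxidation or mispaired opposite them. Both knockouts are constitutive, so every cell of the animal carries them in both fractions, and the DKO was bred from the single mutants. Nuclei from several animals were pooled before sorting, and nothing in the labels ties a library to its own animals, so p-values measure the spread between these libraries, which may be technical.

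In glycolysis, hexokinase traps glucose in the cell, phosphofructokinase commits it to breakdown, and the steps from glyceraldehyde phosphate to pyruvate return ATP and NADH. Lactate dehydrogenase interconverts pyruvate and lactate, monocarboxylate transporters move lactate across the plasma membrane, and the pyruvate carrier and the pyruvate dehydrogenase complex deliver acetyl-CoA to the citrate cycle. In brain, glial cells are known for strong glycolysis and lactate release, and neurons for oxidising pyruvate and lactate in their mitochondria.

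Library depth ran from 56563586 to 96192142 gene counts with a median of 70434612. All values are CPM, a gene's counts per 1000000 counts of its library, after scaling of library size by the trimmed mean of M values (TMM). Ogg1, the first targeted gene, was at 2.54 to 3.49 CPM in WT, 2.96 to 3.21 in DKO, 2.95 to 3.34 in Ogg1-/- and 2.65 to 2.99 in Mutyh-/- NeuN+ libraries, and at 6.14 to 7.75 CPM over the 12 NeuN- libraries. Mutyh, the other targeted gene, was at 1.05 to 1.18 CPM in WT, 1.04 to 1.29 in Ogg1-/-, 9.06 to 10.7 in Mutyh-/- and 7.74 to 11.1 in DKO NeuN+ libraries, and in NeuN- libraries at 2.6 to 3.56 CPM in WT and Ogg1-/- and 7.21 to 10.5 CPM in Mutyh-/- and DKO. Neither whole-gene count was lower where its gene is labelled as deleted, and whole-gene counts hold no information on single deleted exons, so genotype names here are those of the labels. Rbfox3, which encodes NeuN, was at 1321 to 1671 CPM in NeuN+ and 63.9 to 106 CPM in NeuN- libraries. Of the markers of other cells, all 5 of oligodendrocytes, all 6 of astrocytes and all 5 of microglia were lower in WT NeuN+ than in WT NeuN- nuclei by more than 1 on the log2 scale with an adjusted p under 0.05.

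All 39 genes passed the filter on low counts in both fractions. Over the 12 NeuN+ libraries their median level was 28.2 CPM, against 2.95 CPM over the 30132 genes tested, and over the 12 NeuN- libraries it was 24.6 against 3.21 CPM over 31863 genes. Per kilobase of exon, which allows genes to be compared with each other, the highest WT levels in NeuN+ nuclei were those of Aldoa (40.9 CPM per kb), Gpi1 (35.4) and Pkm (29.5), all glycolytic enzymes. In NeuN- nuclei the highest were Ldhb (27.2 CPM per kb), Pkm (22.9) and Mpc1 (21.7).

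The results turn on Pgam1, Tpi1, Gapdh and Aldoa, whose fold changes were the lowest of the 39 in NeuN+ nuclei, so the 250 bases upstream of their RefSeq transcription starts are printed, from RefSeq on GRCm38.p6, in transcript orientation. Capitals mark matches on either strand to the core of the hypoxia response element (ACGTG), the GC box (GGGCGG) and the core of the NRF1 site (GCATGCGC). Aldoa has several annotated starts, and the second is shown. The window of the first holds none of these letters, and that of the last holds 1 ACGTG and 3 GGGCGG. The positions are chr19:41911621-41911870 (plus strand) for Pgam1, chr6:124814159-124814408 (minus strand) for Tpi1, chr6:125165774-125166023 (minus strand) for Gapdh and chr7:126799255-126799504 (minus strand) for Aldoa. Gene positions given further on are from GENCODE, and its starts differ from these. The Gapdh and Aldoa windows lie within those gene positions, and the Tpi1 window partly overlaps its own.
Pgam1: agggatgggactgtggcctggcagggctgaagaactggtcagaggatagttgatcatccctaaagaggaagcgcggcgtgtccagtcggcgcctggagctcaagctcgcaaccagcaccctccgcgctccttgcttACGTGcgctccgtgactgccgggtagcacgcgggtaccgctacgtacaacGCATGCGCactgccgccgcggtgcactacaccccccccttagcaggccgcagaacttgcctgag
Tpi1: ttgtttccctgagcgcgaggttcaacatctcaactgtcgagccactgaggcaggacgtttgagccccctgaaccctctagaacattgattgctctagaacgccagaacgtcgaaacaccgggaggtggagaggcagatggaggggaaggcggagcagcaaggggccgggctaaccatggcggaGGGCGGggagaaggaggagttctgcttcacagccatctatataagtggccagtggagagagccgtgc
Gapdh: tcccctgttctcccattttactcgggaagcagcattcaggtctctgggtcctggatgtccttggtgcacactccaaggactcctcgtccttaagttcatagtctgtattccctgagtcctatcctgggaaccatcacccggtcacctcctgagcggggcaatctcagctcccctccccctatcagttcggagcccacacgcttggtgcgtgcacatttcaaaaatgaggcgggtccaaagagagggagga
Aldoa: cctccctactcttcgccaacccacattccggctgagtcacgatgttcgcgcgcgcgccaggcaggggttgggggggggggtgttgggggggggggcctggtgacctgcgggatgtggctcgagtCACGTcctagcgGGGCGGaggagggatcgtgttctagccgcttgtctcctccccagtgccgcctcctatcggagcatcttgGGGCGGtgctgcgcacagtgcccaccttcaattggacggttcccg
The Pgam1 window holds 1 ACGTG and 1 GCATGCGC, the Tpi1 window 1 GGGCGG, the Aldoa window 1 ACGTG and 2 GGGCGG, and the Gapdh window none of these letters. RefSeq windows were found for 36 of the 39 genes and not for Slc2a3, Idh3a and Slc16a7. Of the 36, 15 (41.7%) held ACGTG in at least 1 window, against 18.5% of all 27018 genes with a window. GGGCGG was present for 23 (63.9%) against 35.4%, CACGTG, which contains ACGTG, for 5 (13.9%) against 6.86%, and GCATGCGC for 3 (8.33%) against 2.56%. TATAAA was present for 1 (2.78%) against 14.3%. These are counts of letters, and they say nothing about binding.

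In NeuN+ nuclei, part of the glycolytic and citrate cycle enzymes were lower in the knockouts than in WT. Averaged over the 3 knockouts, 14 of the 39 genes fell and none rose at an adjusted p under 0.05 (edgeR quasi-likelihood test, Benjamini-Hochberg adjustment), where 1.93% of all genes tested passed, 1.5% downwards. The 14 were 7 of the 14 glycolytic enzymes (Aldoa, Tpi1, Gapdh, Pgk1, Pgam1, Eno1 and Pkm), the lactate dehydrogenase subunit Ldhb, the pyruvate dehydrogenase complex genes Pdha1 and Dld, and the citrate cycle genes Cs, Idh3a, Mdh1 and Mdh2. The falls ran from 11.1% (Cs) to 28.3% (Tpi1), and none reached 0.5 on the log2 scale, the minimum the study used for a differentially expressed gene, so that by that rule 0 of the 39 were called, against 0.571% of all genes. The count of 14 depends on single WT libraries: it was 0 without WT replicate 2, 1 without WT replicate 3, 8 without WT replicate 1, 5 without Ogg1-/- replicate 2 and 16 without Mutyh-/- replicate 3. The share of all genes that passed was 0.211%, 0.347%, 0.672%, 0.675% and 4.13% in the same order. At an unadjusted p under 0.05 there were 24 of the 39 with all libraries, where 2913 of the 30132 genes tested were lower and 2529 higher. Without WT replicate 2 there were 19 of the 39. The share of all genes at that p is not given for this setting, so the 19 cannot be set against it. In bulk RNA, fewer cells of a type and less RNA per cell cannot be told apart.

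The 3 knockouts were each compared with the same 3 WT libraries, so the 3 comparisons are not independent, and their values stand side by side. The median log2 fold change of the 39 genes was -0.15 in Mutyh-/-, -0.14 in Ogg1-/- and -0.15 in DKO, against -0.01, 0.01 and 0.00 over all genes tested. Genes below 0 numbered 25, 30 and 30 of 39. By the rule of an adjusted p under 0.05 with a log2 fold change beyond 0.5, 0 genes were called in Mutyh-/- (0.428% of all genes), 1 in Ogg1-/- (Gapdh, against 0.574%) and 3 in DKO (Pgam1, Tpi1 and Aldoa, against 0.302%). On the adjusted p alone the counts were 0, 8 and 5, all downwards, against 0.641%, 1.1% and 0.494% of all genes. For Mutyh-/-, edgeR gave 21 genes lower and 1 higher at an unadjusted p under 0.05, which 18.7% of all genes had in either direction. DESeq2 gave 6 at an adjusted p under 0.05, which 5.02% of all genes had. In Ogg1-/- the count of 8 became 0 without WT replicate 2, WT replicate 3, Ogg1-/- replicate 2 or Ogg1-/- replicate 3. It became 2 without WT replicate 1 or Ogg1-/- replicate 1. The share of all genes that passed was 0.263%, 0.298%, 0.235%, 0.256%, 0.477% and 0.688% in the same order. In DKO the count of 5 became 0 without WT replicate 2 or WT replicate 3, and at most 3 without any other library of that comparison. The share of all genes was 0.136% and 0.143% without these WT replicates, and 0.17% to 0.647% without another library. With the minimum of 0.5, leaving out single libraries gave 0 to 2 genes in Ogg1-/- and 0 or 1 in DKO. Both gave 0 without WT replicate 2 or WT replicate 3, and the shares of all genes by this rule are not given there. Mutyh-/- had 1 gene on the adjusted p alone without its replicate 3, where 6.21% of all genes passed. The medians stayed at -0.18 to -0.11 for either single knockout and at -0.19 to -0.13 for DKO with each library left out in turn.

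Counted by whether the libraries of the groups overlap, all 3 Mutyh-/- libraries were below all 3 WT libraries for 16 genes and above for 2, where 10.8% of all genes tested were entirely below and 10.3% entirely above. The same count was 22 below and 1 above in Ogg1-/- (10.2% and 9.07% of all genes) and 21 below and 0 above in DKO (9.49% and 7.33%). All 9 knockout libraries were below all 3 WT libraries for 14 genes and above them for 0, against 2.79% and 1.59% of all genes. These 14 are not the same set as the 14 that passed the test for the mean of the knockouts. They include Pfkm, Idh3b and Fh1, which did not pass, and leave out Pgk1, Eno1 and Pkm, which did.

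**Figure D1:**
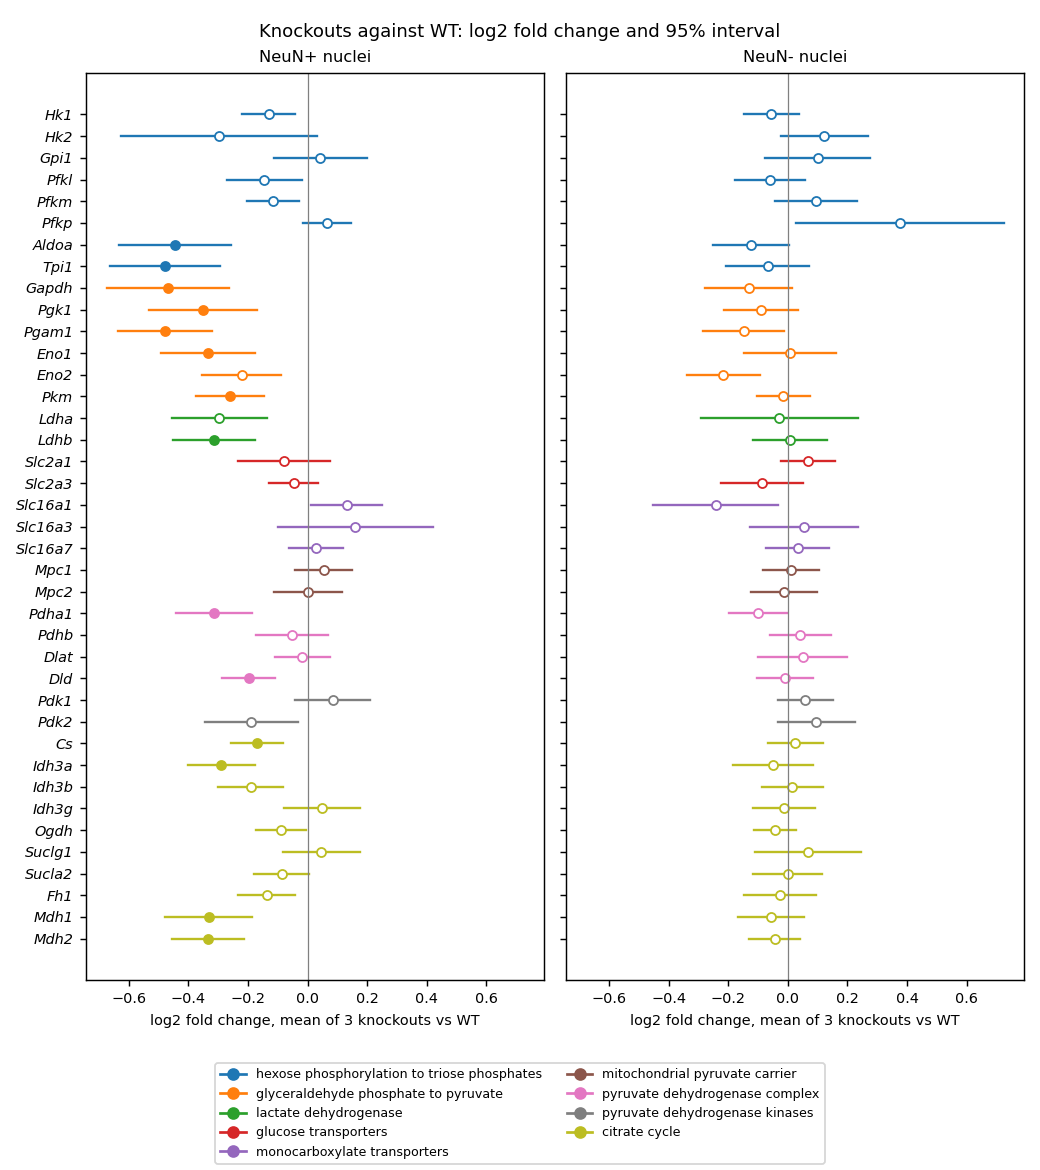
Log2 fold change of the mean of the 3 knockouts against WT (horizontal) for each of the 39 genes (vertical, ordered and coloured by role) in NeuN+ (left) and NeuN- nuclei (right), with 95% intervals from edgeR and filled points at an adjusted p under 0.05. In NeuN+ nuclei 14 points are filled and all lie left of 0, the lactate transporters lie right of 0, and in NeuN- nuclei no point is filled.

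The plot of log2 fold changes by gene shows that the lower values were unequally spread over the pathway. Among the 6 genes from glyceraldehyde phosphate to pyruvate, 5 fell in the mean of the 3 knockouts, with a median log2 fold change of -0.34. Gapdh, glyceraldehyde-3-phosphate dehydrogenase, which forms NADH, lies on chr6:125161715-125166467. Its NeuN+ level was 50, 55.7 and 51.6 CPM in the 3 WT libraries, 42.5, 47.6 and 33.9 in Mutyh-/-, 39.9, 37.6 and 31.5 in Ogg1-/- and 35.4, 42.1 and 31.3 in DKO. Every knockout library was below every WT library, and in each of the knockouts the libraries differed among themselves more than those of WT. The log2 fold change of Gapdh was -0.53 for Ogg1-/- (edgeR adjusted p = 0.0491), -0.53 for DKO (adjusted p = 0.0747) and -0.34 for Mutyh-/- (adjusted p = 0.152). In their mean Gapdh fell by 27.7% (-0.47 ± 0.096 SE, edgeR adjusted p = 0.0254). Gapdh has 77 near-identical copies among the counted genes, most of them pseudogenes, and these copies together held 766% of its own NeuN+ count, so its level is uncertain.

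Pgam1, phosphoglycerate mutase, at chr19:41911923-41918660, had the smallest p-value of the 39 genes. Its NeuN+ level was 25.2, 28 and 26.6 CPM in WT, 21.2, 22.9 and 17.7 in Mutyh-/-, 19.7, 19.3 and 18 in Ogg1-/- and 18.4, 19.4 and 15.6 in DKO. The lowest WT library lay above the highest knockout library, and DKO replicate 3 and Mutyh-/- replicate 3 were the lowest of all. In the mean of the knockouts Pgam1 fell by 28.2% (log2 fold change -0.48 ± 0.074 SE, edgeR adjusted p = 0.00516). It also fell in DKO alone (-0.58, adjusted p = 0.0117) and Ogg1-/- alone (-0.48, adjusted p = 0.0234), and the value for Mutyh-/- was -0.37 (adjusted p = 0.0745). Without WT replicate 2 the adjusted p of the mean was 0.095, the only one of 16 alternative settings in which it was above 0.05.

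Pkm, the pyruvate kinase of brain and muscle, which forms pyruvate and ATP, was at 128, 144 and 136 CPM in WT, 118, 129 and 109 in Mutyh-/-, 115, 109 and 107 in Ogg1-/- and 117, 117 and 104 in DKO NeuN+ libraries. Mutyh-/- replicate 2 reached into the WT range, while the Ogg1-/- and DKO libraries lay below it. Pkm fell by 16.5% in the mean of the knockouts (-0.26 ± 0.054 SE, edgeR adjusted p = 0.0267). Phosphoglycerate kinase, Pgk1, fell by 21.6% (edgeR adjusted p = 0.0489), and the widely expressed enolase Eno1 by 20.6% (adjusted p = 0.0355). Both are uncertain for the same reason as Gapdh, since 3 near-identical copies of each held 6.22% (Pgk1) and 26.9% (Eno1) of its count, and 1 copy of Pgam1 held 24%. The neuronal enolase Eno2 did not pass the test: it was at 83.6, 91 and 85.5 CPM in WT, 80.6, 83.6 and 67.8 in Mutyh-/-, 74.5, 71.7 and 69.7 in Ogg1-/- and 72.5, 81.4 and 67.8 in DKO, with a mean log2 fold change of -0.22 (edgeR adjusted p = 0.0811). The Ogg1-/- and DKO libraries of Eno2 lay below those of WT, and Mutyh-/- replicate 2 came level with the lowest of them.

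Of the 8 genes from hexose phosphorylation to triose phosphates, 2 fell, and these catalyse the last steps of that stretch. Tpi1, triosephosphate isomerase, at chr6:124810586-124814296, was at 17, 20.5 and 18.3 CPM in WT, 15.2, 15.5 and 11.9 in Mutyh-/-, 14.5, 11.8 and 13.4 in Ogg1-/- and 13, 13.8 and 11.2 in DKO. Again no knockout library reached the WT range. Tpi1 fell by 28.3% in the mean (-0.48 ± 0.087 SE, edgeR adjusted p = 0.0136), by 31.9% in the DKO (adjusted p = 0.0399) and by 28.9% in Ogg1-/- (adjusted p = 0.0435). Aldoa, fructose-bisphosphate aldolase A, at chr7:126795234-126800751, was at 102, 117 and 111 CPM in WT, 94.5, 98.5 and 75.6 in Mutyh-/-, 88.6, 76.1 and 69.5 in Ogg1-/- and 77.4, 84.9 and 64.8 in DKO. Its groups did not overlap either, with DKO replicate 3 the lowest. Aldoa fell by 26.6% in the mean (-0.45 ± 0.089 SE, edgeR adjusted p = 0.0227), and the symbol has 2 gene models, of which the protein-coding main locus was used. Genes of the earlier steps did not pass the test. Log2 fold changes in the mean of the knockouts were -0.13 for the hexokinase Hk1 and 0.04 for glucose-6-phosphate isomerase, Gpi1. They were -0.14, -0.12 and 0.06 for the phosphofructokinase subunits Pfkl, Pfkm and Pfkp (edgeR adjusted p from 0.12 to 0.805 over these genes). Hk2, a hexokinase at 0.603 to 1.04 CPM in NeuN+ libraries, had a value of -0.30 (adjusted p = 0.322).

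Of the lactate dehydrogenase subunits, Ldhb, the form that predominates in heart and neurons, was at 28.2, 31.4 and 28.8 CPM in WT, 26.1, 25.5 and 21.2 in Mutyh-/-, 25.9, 23.7 and 23 in Ogg1-/- and 23.3, 23.9 and 21.1 in DKO. All knockout libraries were below the WT range. Ldhb fell by 19.5% in the mean of the knockouts (-0.31 ± 0.065 SE, edgeR adjusted p = 0.0262). Ldha, the form that predominates in muscle, gave -0.30 (adjusted p = 0.0559), just outside the threshold, and its 4 near-identical copies held 32.2% of its NeuN+ count.

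**Figure D2:**
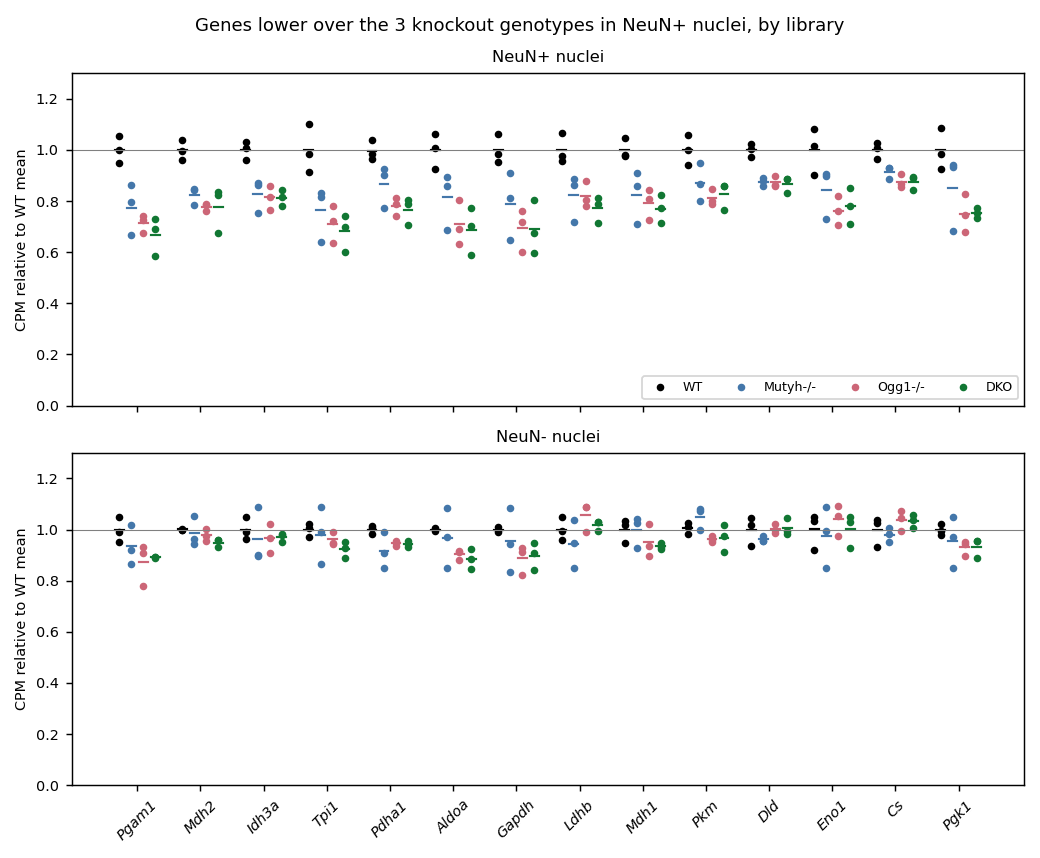
CPM relative to the WT mean of the same fraction (vertical, from 0) for the 14 genes that fell in the mean of the knockouts in NeuN+ nuclei (horizontal), 1 point per library and a dash at each group mean, coloured by genotype, in NeuN+ (top) and NeuN- nuclei (bottom). In NeuN+ nuclei the knockout points of most genes lie below all WT points, Pkm, Eno1 and Pgk1 overlapping through Mutyh-/-, and in NeuN- nuclei the points of the genotypes lie close to the WT mean.

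The plot of CPM relative to the WT mean sets these libraries beside those of NeuN- nuclei, where the same 14 genes lay closer to WT. Transport genes did not pass the test in NeuN+ nuclei. Slc2a3, the neuronal glucose transporter GLUT3, was at 54.5, 58.3 and 60.5 CPM in WT, 58.6, 59.6 and 57.4 in Mutyh-/-, 54.3, 54.8 and 53.8 in Ogg1-/- and 55.7, 54.9 and 54.4 in DKO. Each knockout overlapped WT, with Mutyh-/- above the other knockouts, and its mean log2 fold change was -0.05 (edgeR adjusted p = 0.553). Slc16a7, the neuronal lactate transporter MCT2, was at 144, 129 and 139 CPM in WT, 134, 139 and 143 in Mutyh-/-, 141, 144 and 131 in Ogg1-/- and 136, 143 and 145 in DKO. These ranges overlapped throughout, and the log2 fold change was 0.03 (adjusted p = 0.779). None of the 3 monocarboxylate transporters had a mean log2 fold change below 0, with a median of 0.13 for the list. Slc16a1, the transporter MCT1, was at 9.46, 10.9 and 10.5 CPM in WT and 12, 11.9 and 11.9 in Mutyh-/-, without overlap, at a log2 fold change of 0.21 (adjusted p = 0.125). Mpc1, a subunit of the mitochondrial pyruvate carrier, was at 37.1, 36.6 and 39 CPM in WT and 36.8 to 41.3 in the 9 knockout libraries, whose range overlapped that of WT, and the log2 fold change was 0.05 (adjusted p = 0.557). The remaining transport genes gave -0.08 (Slc2a1, the glucose transporter GLUT1), 0.16 (Slc16a3, the lactate exporter MCT4) and 0.00 (Mpc2, the partner of Mpc1), with adjusted p of 0.601, 0.523 and 1.

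At the entry of pyruvate into the citrate cycle, 2 of 4 pyruvate dehydrogenase complex genes fell. Pdha1, the catalytic alpha subunit, was at 19.7, 21.2 and 20.1 CPM in WT, 18.9, 18.4 and 15.8 in Mutyh-/-, 16.6, 16.1 and 15.1 in Ogg1-/- and 16.1, 16.4 and 14.4 in DKO. WT libraries were the highest, and the knockout libraries overlapped one another. Pdha1 fell by 19.5% in the mean (-0.31 ± 0.06 SE, edgeR adjusted p = 0.0181), by 23.2% in the DKO (adjusted p = 0.0394) and by 21.8% in Ogg1-/- (adjusted p = 0.0343). Dld, the dihydrolipoamide dehydrogenase that this complex shares with 2-oxoglutarate dehydrogenase, fell by 12.8% (adjusted p = 0.0297). The acetyltransferase Dlat was at 34.8, 34.5 and 36.7 CPM in WT and at 32.6 to 37.2 CPM in the 9 knockout libraries, which spanned the WT range (log2 fold change -0.02, edgeR adjusted p = 0.872), and the beta subunit gene Pdhb gave -0.05 (adjusted p = 0.675). Pdk2, a kinase that switches the complex off, was at 15.1, 17.3 and 16.3 CPM in WT, 14.8, 16.5 and 12.4 in Mutyh-/-, 15.6, 15.1 and 13.6 in Ogg1-/- and 12.9, 14 and 13.3 in DKO. Only the DKO libraries of Pdk2 lay wholly below WT, and its mean log2 fold change was -0.19 (edgeR adjusted p = 0.191), while the other kinase, Pdk1, gave 0.08 (adjusted p = 0.485).

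Of the 10 citrate cycle genes, 4 fell, with a median log2 fold change of -0.15 for the 10. Mdh2, the mitochondrial malate dehydrogenase, at chr5:135778480-135790398, was at 39.4, 42.6 and 40.9 CPM in WT, 34.8, 34.5 and 32.1 in Mutyh-/-, 32.1, 31.2 and 32.4 in Ogg1-/- and 34.2, 33.7 and 27.7 in DKO. A gap separated WT from every knockout library. Mdh2 fell by 20.6% in the mean (-0.33 ± 0.057 SE, edgeR adjusted p = 0.0103), by 22.2% in the DKO (adjusted p = 0.0394) and by 22.1% in Ogg1-/- (adjusted p = 0.0256). Idh3a, the catalytic subunit of the NAD-dependent isocitrate dehydrogenase, was at 32.1, 34.5 and 33.6 CPM in WT, 29.1, 28.8 and 25.2 in Mutyh-/-, 28.7, 27.3 and 25.6 in Ogg1-/- and 27.3, 28.1 and 26.1 in DKO. Its knockout libraries were all below WT and close to each other across genotypes. Idh3a fell by 18.2% in the mean (-0.29 ± 0.052 SE, edgeR adjusted p = 0.0136), whereas its partner subunits Idh3b (-0.19, adjusted p = 0.0701) and Idh3g (0.05, adjusted p = 0.719) did not pass the test.

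Mdh1, the cytosolic malate dehydrogenase, which carries NADH from glycolysis towards mitochondria in the malate-aspartate shuttle, was at 43.8, 46.6 and 43.5 CPM in WT, 38.3, 40.5 and 31.6 in Mutyh-/-, 37.6, 36.1 and 32.4 in Ogg1-/- and 34.4, 36.8 and 31.8 in DKO. The WT libraries stood above all others. Mdh1 fell by 20.5% in the mean (-0.33 ± 0.068 SE, edgeR adjusted p = 0.0262), and Cs, citrate synthase, fell by 11.1% (adjusted p = 0.0488). Ogdh, the decarboxylating subunit of 2-oxoglutarate dehydrogenase and the highest of the 10 per kilobase of exon in NeuN+ nuclei, was at 94.2, 98.8 and 92.4 CPM in WT and 85.7 to 92.5 CPM in the 9 knockout libraries. Its groups met at the edge of the WT range, and the log2 fold change was -0.09 (adjusted p = 0.244). Suclg1, Sucla2 and Fh1, which act between 2-oxoglutarate and malate, gave 0.04, -0.09 and -0.14 (adjusted p from 0.129 to 0.742).

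In NeuN- nuclei no gene of the 39 passed an adjusted p of 0.05 in Mutyh-/-, Ogg1-/-, DKO or their mean (edgeR), where 0.32%, 0.342%, 0.179% and 0.37% of all genes passed. At an unadjusted p under 0.05, edgeR gave 4 lower and 3 higher in Mutyh-/-, 3 and 0 in Ogg1-/-, 3 and 1 in DKO and 4 and 1 in the mean, where 13.7%, 11.8%, 12.4% and 14.3% of all genes had such a p. DESeq2 gave 0, 0, 0 and 1 (Eno2) at an adjusted p under 0.05, where 3.2%, 2.83%, 1.9% and 3.47% of all genes passed. The median log2 fold changes were 0.00, -0.01, -0.01 and -0.01. The libraries lay wholly below those of WT for 4 genes in Mutyh-/- and wholly above for 3, against 10.2% of all genes below and 9.02% above. They lay below for 9 and above for 2 in Ogg1-/- (10.7% and 9.12% of all genes), and below for 9 and above for 0 in DKO (9.15% and 7.8%).

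Eno2, a neuronal transcript, had the smallest p-value in NeuN- nuclei. It was at 19, 20.6 and 21.1 CPM in WT, 16.9, 17.8 and 18.3 in Mutyh-/-, 16.3, 17.8 and 16.9 in Ogg1-/- and 16.6, 16.7 and 19.4 in DKO NeuN- libraries. WT was highest except for DKO replicate 3, and the mean log2 fold change was -0.22 ± 0.056 SE (edgeR adjusted p = 0.14). All 8 markers of neurons were also below 0 in the mean of the knockouts in NeuN- nuclei, with a median of -0.20, and the part of residual neuronal nuclei in the Eno2 value was not tested.

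Pgam1 in NeuN- libraries was at 16.9, 17.6 and 18.7 CPM in WT, 16.4, 18.1 and 15.4 in Mutyh-/-, 16.6, 13.9 and 16.2 in Ogg1-/- and 15.9, 15.9 and 15.8 in DKO. Mutyh-/- overlapped WT and the other knockouts lay below it, at a mean log2 fold change of -0.15 (edgeR adjusted p = 0.309). Slc16a1 was at 23.8, 23.7 and 19.5 CPM in WT, 16.5, 18.8 and 19.2 in Mutyh-/-, 17.2, 18.4 and 21.1 in Ogg1-/- and 22, 20.7 and 16.2 in DKO NeuN- libraries. WT replicate 3 fell among the knockout libraries, and the mean log2 fold change was -0.24 (adjusted p = 0.283), opposite in sign to that in NeuN+ nuclei. Pfkp, the platelet-type phosphofructokinase, ranged from 60.9 to 82.6 CPM in WT and from 68.4 to 125 CPM in the knockouts (mean log2 fold change 0.38, edgeR adjusted p = 0.313). Its highest value was in DKO replicate 3, which also had the highest summed level of choroid plexus markers (232 CPM, against 7.77 to 104 in the other knockout libraries and 36.4 to 65.4 in WT). The part of choroid plexus nuclei in it was not tested.

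Whether the knockouts acted differently in the 2 fractions was tested directly over all 24 libraries. The difference of the log2 fold changes, NeuN+ minus NeuN-, had a median over the 39 genes of -0.15 for Mutyh-/-, -0.20 for Ogg1-/-, -0.21 for DKO and -0.19 for their mean. No gene passed an adjusted p of 0.05 in any of the 4 tests (edgeR), where 0.0209%, 0.0537%, 0.0567% and 0.0358% of all 33523 genes did. At an unadjusted p under 0.05 there were 12, 18, 19 and 19 genes, against 8.58%, 7.09%, 9.4% and 9.55% of all genes. DESeq2 gave 0, 0, 0 and 1 at an adjusted p under 0.05, against 0.434%, 0.407%, 1.19% and 1.27% of all genes. That 1 gene was Mdh2, for which the edgeR difference was -0.29 (adjusted p = 0.172), the smallest adjusted p of the 39 for the mean. Without Mutyh-/- NeuN+ replicate 3, 1 gene, Slc2a1, passed for Mutyh-/- (edgeR), where 0.0938% of all genes did. The falls seen in NeuN+ nuclei are thus not shown, gene by gene, to differ from those in NeuN- nuclei.

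The knockouts were also compared with each other. In NeuN+ nuclei, 0 genes passed an adjusted p of 0.05 (edgeR) for Ogg1-/- against Mutyh-/-, DKO against Mutyh-/- or DKO against Ogg1-/-, where 0.654%, 0.163% and 0.252% of all genes did. The counts at an unadjusted p under 0.05 were 4, 4 and 0 (12.7%, 6.86% and 4.26% of all genes), and DESeq2 also gave 0 in each. Without Mutyh-/- NeuN+ replicate 3, 3 genes (Pgk1, Slc2a1 and Sucla2) passed for Ogg1-/- against Mutyh-/-, where 3.79% of all genes did. In that setting 15 genes had an unadjusted p under 0.05 in each comparison with Mutyh-/-. The share of all genes at that p is not given there, so the 15 cannot be set against it. The medians were -0.06, -0.08 and -0.01. In NeuN- nuclei edgeR gave 0 in the same tests (0.788%, 0.148% and 0.157% of all genes), with 5, 6 and 1 at an unadjusted p under 0.05 (11.5%, 11% and 4.34%). Sucla2 passed for Ogg1-/- against Mutyh-/- by DESeq2, where 2.94% of all genes did. It also passed by edgeR without Mutyh-/- NeuN- replicate 3, where 1.92% of all genes did. Without that library 8 genes had an unadjusted p under 0.05 for Ogg1-/- against Mutyh-/- and 12 for DKO against Mutyh-/-. Here too the share of all genes at that p is not given, so these counts cannot be set against it. The departure of DKO from the sum of the single knockouts had a median of 0.1 in NeuN+ nuclei, with 29 of 39 genes above 0, 6 genes at an unadjusted p under 0.05 (7.95% of all genes) and 0 at an adjusted p under 0.05 (0.159%) by edgeR, and 0 by DESeq2. In NeuN- nuclei the median was -0.02, with 2 genes (8% of all genes) and 0 (0.122%) by edgeR, and 0 by DESeq2.

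WT NeuN+ and NeuN- nuclei differed in the proportions of members within several enzyme and transporter families. By an adjusted p under 0.05 with a log2 fold change beyond 1, 8 of the 39 genes were higher in NeuN+ nuclei and 3 lower (edgeR), where 21.3% of all genes were called higher and 21.6% lower, so the number of calls does not set these genes apart. On the adjusted p alone 29 were higher and 8 lower, against 36.1% and 36.3% of all genes, and the median log2 fold change was 0.58 against -0.01 over all genes. NeuN+ libraries were sequenced on other lanes than NeuN- libraries, so the effects of lane and fraction cannot be told apart.

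Eno2 was the gene most raised in NeuN+ nuclei, at 83.6, 91 and 85.5 CPM in WT NeuN+ and 19, 20.6 and 21.1 CPM in WT NeuN- libraries (log2 fold change 2.34 ± 0.079 SE, edgeR adjusted p = 1.71e-17). The fractions lay far apart, and per kilobase of exon Eno2 made up 64.5% ± 1.25 (SD, n = 3) of enolase in NeuN+ and 29.5% ± 1.99 in NeuN- nuclei. The copies of Eno1 held 26.9% of its count in NeuN+ and 25.3% in NeuN- nuclei, so the enolase shares are uncertain. Slc2a3 was at 54.5, 58.3 and 60.5 CPM in NeuN+ and 14, 14 and 15.8 in NeuN- WT libraries (2.23 ± 0.063 SE, adjusted p = 9.33e-19), and Slc2a1, known from endothelium and glia, at 6.24, 6.21 and 5.83 in NeuN+ and 46.7, 47 and 46.4 in NeuN- (-2.69 ± 0.072 SE, adjusted p = 3.72e-19). The glucose transporters were thus reversed between the fractions, with Slc2a3 at 82.1% ± 1.26 of their per-kilobase sum in NeuN+ and 13.1% ± 0.852 in NeuN- nuclei.

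Hk2 showed the widest difference, at 1.04, 0.973 and 0.967 CPM in NeuN+ and 24.7, 21.7 and 22.7 in NeuN- WT libraries (-4.29 ± 0.126 SE, edgeR adjusted p = 1.66e-18). Of the per-kilobase sum of Hk1 and Hk2, Hk2 was 1.4% ± 0.129 in NeuN+ and 34% ± 1.92 in NeuN- nuclei. Slc16a3 was lower in NeuN+ nuclei (-1.66, adjusted p = 5.15e-11), and Slc16a7 made up 81.5% ± 1.98 of the monocarboxylate transporters in NeuN+ against 56.5% ± 3.2 in NeuN- nuclei. Ldha was 20.9% ± 1.23 of lactate dehydrogenase in NeuN+ and 9.87% ± 1.2 in NeuN- nuclei, with Ldhb itself lower in NeuN+ (-0.42, adjusted p = 4.59e-05). The copies of Ldha held 32.2% of its count in NeuN+ and 93.9% in NeuN- nuclei, so its share in NeuN- nuclei is uncertain. The kinases were divided as well, with Pdk1 at 34.4% ± 1.72 of Pdk1 and Pdk2 in NeuN+ and 17.8% ± 1.89 in NeuN- nuclei. The other genes higher in NeuN+ by more than 1 were Pfkl (1.32), Tpi1 (1.23), Gpi1 (1.22), Mdh1 (1.18), Idh3a (1.12) and Pfkp (1.09). Mpc1 and Cs were slightly lower in NeuN+ nuclei (-0.15 and -0.26, adjusted p = 0.0141 and 6.67e-05).

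**Figure D3:**
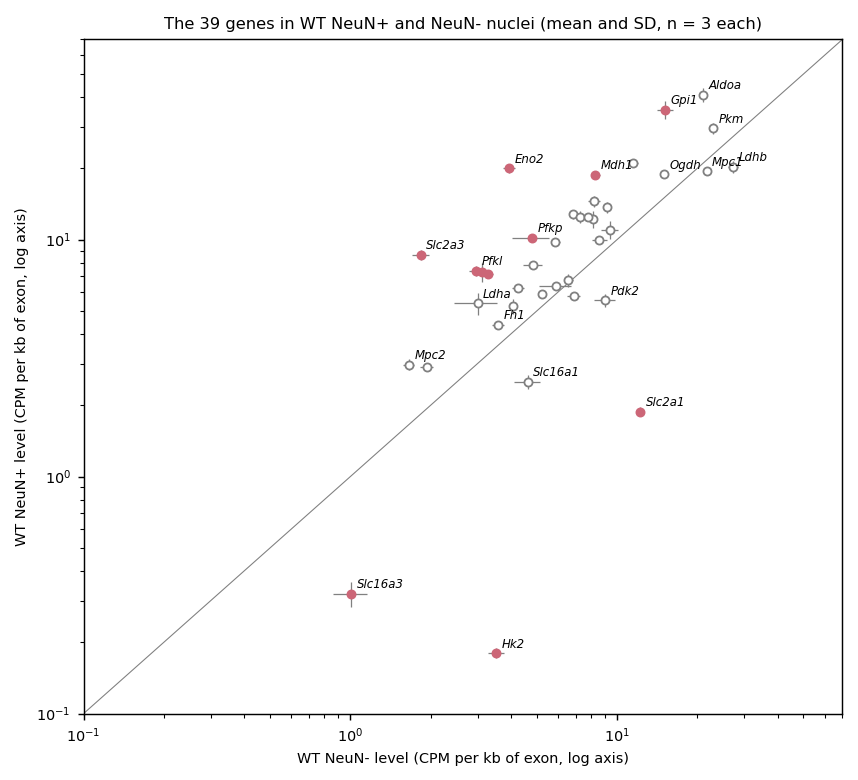
WT level of each of the 39 genes in CPM per kilobase of exon in NeuN- (horizontal, log axis) and NeuN+ nuclei (vertical, log axis), with means and SD bars of 3 libraries, the line of equality, and filled points for the 11 genes called between the fractions. Eno2 and Slc2a3 stand well above the line, and Hk2, Slc2a1 and Slc16a3 well below it.

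The share of Eno2 in enolase was 65.8% in Mutyh-/-, 66.5% in Ogg1-/- and 66.5% in DKO NeuN+ nuclei, close to the WT share of 64.5%. As the plot of WT levels by fraction shows, most of the other genes lay near or above the line of equality.

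Other genes of these pathways were examined as lists. In the mean of the knockouts in NeuN+ nuclei, 1 of 25 tested genes of glucose, lactate and pyruvate handling passed an adjusted p of 0.05 (edgeR), the hexose transporter Slc2a6, which rose (log2 fold change 0.32 ± 0.066 SE, adjusted p = 0.0254). Of 18 further citrate cycle and malate-aspartate shuttle genes, 16 were below 0 and 1 fell, Sdha, the flavoprotein subunit of succinate dehydrogenase (-0.24 ± 0.05 SE, adjusted p = 0.0275). None of 22 other glycolysis and gluconeogenesis genes, 8 pentose phosphate pathway genes, 9 glycogen genes and 15 regulators of glycolysis passed. In NeuN- nuclei none of these lists held a gene that passed. Between the fractions of WT, 6 of 9 glycogen genes and 3 of 8 pentose phosphate genes were lower in NeuN+ nuclei by more than 1 on the log2 scale at an adjusted p under 0.05, and none of either list was higher by that rule.

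The length of the gene went with the knockout values. Of the 39 genes, the 8 that span under 10 kb had a median log2 fold change of -0.33 in the mean of the knockouts in NeuN+ nuclei, and 4 of them fell. The 12 that span 10 to 20 kb had a median of -0.30 (7 fell), the 12 that span 20 to 40 kb -0.10 (3 fell), and the 7 longer ones -0.09 (0 fell). Over all tested protein-coding genes the medians in these classes were -0.05, -0.02, -0.01 and 0.01, with 4.5%, 1.95%, 1.45% and 0.844% falling. Spearman's rho of span with log2 fold change was 0.5 over the 39 genes and 0.12 over 16629 protein-coding genes, as a description across genes, which share libraries and are not replicates. The plot of fold change by gene length shows the 4 shortest of the genes that fell at its lower left. The part of gene length in the knockout values was not tested.

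**Figure D4:**
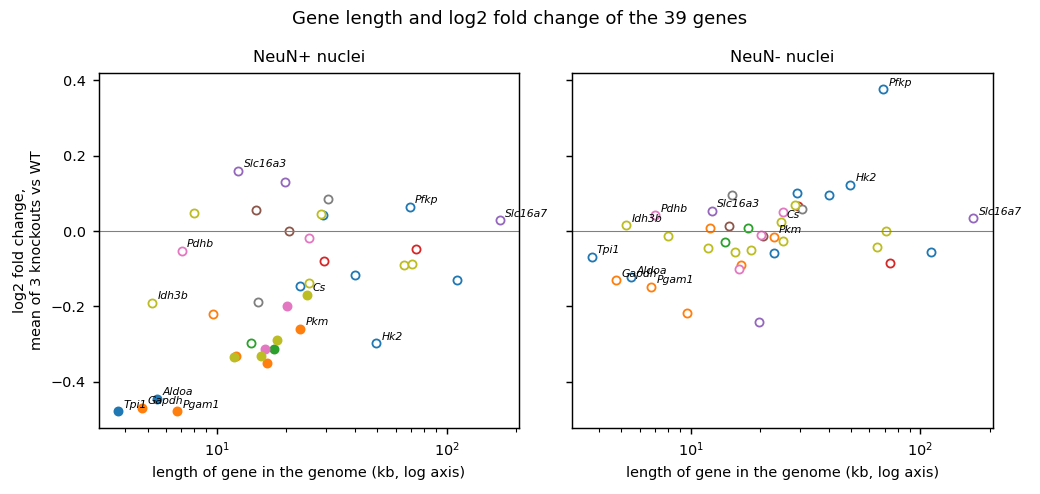
Log2 fold change of the mean of the 3 knockouts against WT (vertical) by length of the gene in the genome in kb (horizontal, log axis), 1 point per gene coloured by role as in the plot of log2 fold changes, filled at an adjusted p under 0.05, in NeuN+ (left) and NeuN- nuclei (right). In NeuN+ nuclei Tpi1, Gapdh, Aldoa and Pgam1, all under 10 kb, are the lowest points, and no gene over 40 kb is filled.

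Transcripts of cytosolic ribosomal proteins, which are also short and abundant, moved in the same direction in NeuN+ nuclei. Of 85 tested, 84 were below 0 in the mean of the knockouts and 20 fell at an adjusted p under 0.05 (edgeR), with a median of -0.27. Their summed level ranged over 1033 to 1063 CPM in WT, and over 831 to 972 in DKO, 825 to 943 in Ogg1-/- and 917 to 1042 in Mutyh-/- NeuN+ libraries. The 14 glycolytic enzymes together ranged over 999 to 1098, 891 to 979, 883 to 958 and 889 to 1043 CPM in the same groups. In NeuN- nuclei 82 of 85 ribosomal protein genes were below 0, with a median of -0.18, and 1 fell. All 6 markers of interneurons were also below 0 in NeuN+ nuclei (1 at an adjusted p under 0.05), with sums of 139 to 149 CPM in WT, 115 to 121 in DKO, 121 to 139 in Ogg1-/- and 93.3 to 128 in Mutyh-/-. In the plot of both sums by library, WT replicate 1 lay among the Mutyh-/- libraries. The summed markers of CA3 pyramidal cells were higher in every knockout library (685 to 842 CPM) than in WT (649 to 677 CPM). Of these 3 markers, 2 were above 0 and 1 below in the mean of the knockouts, 0 at an adjusted p under 0.05 (edgeR). Rbfox3 was at 1321 to 1366 CPM in WT and 1362 to 1671 CPM in the knockouts. Of the 8 markers of neurons, Rbfox3 among them, 5 were below 0 and 3 above, with a median of -0.08. Of those 8, 2 fell at an adjusted p under 0.05 (edgeR). All 6 astrocyte markers and all 3 of oligodendrocyte precursors were below 0 in NeuN+ nuclei, with medians of -0.16 and -0.27. Astrocyte sums were 273 to 328 CPM in WT and 248 to 311 CPM in the knockouts, against 3038 to 4465 CPM in NeuN- libraries. The part of RNA content, of neuron types or of glial nuclei in the lower values of the 39 genes was not tested.

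**Figure D5:**
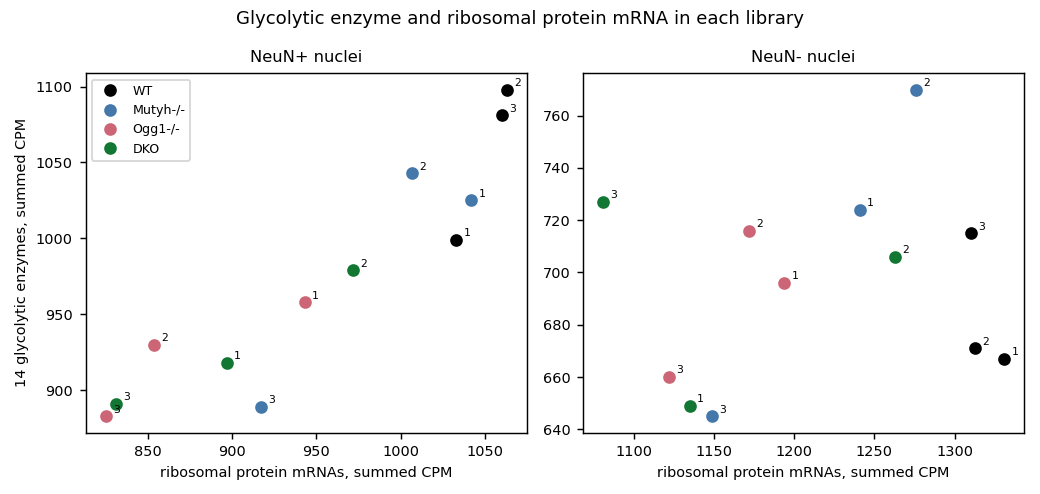
Summed CPM of the 14 glycolytic enzymes (vertical, axis not from 0) against summed CPM of the cytosolic ribosomal protein genes (horizontal, axis not from 0), 1 point per library with its replicate number, coloured by genotype, in NeuN+ (left) and NeuN- nuclei (right). In NeuN+ nuclei both sums are highest in WT replicates 2 and 3, WT replicate 1 lies beside Mutyh-/- replicates 1 and 2, and the Ogg1-/- and DKO libraries are lower on both axes, whereas no such line is seen in NeuN- nuclei.

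Some of the 39 genes lie on the chromosomes of the targeted genes. On chromosome 6, Slc2a3, Eno2, Tpi1 and Gapdh lie 9.39, 11.42, 11.48 and 11.83 Mb from Ogg1, and on chromosome 4 Slc2a1 lies 2.29 Mb from Mutyh. Hk2, Suclg1 and Ldhb are also on chromosome 6, and Eno1 is also on chromosome 4. Without the genes on chromosomes 4 and 6, the NeuN+ medians were -0.12 in Mutyh-/-, -0.12 in Ogg1-/-, -0.13 in DKO and -0.13 in their mean. Without Gapdh, Aldoa, Eno1, Ldha, Pgam1 and Pgk1, the genes with a second gene model or with copies that held at least 5.17% of their count in both fractions, they were -0.11, -0.1, -0.12 and -0.12. Genes overlapped by another gene on the opposite strand, among them Tpi1 (Spsb2), Aldoa (Fam57b), Gapdh (Iffo1), Pdha1 (Map3k15) and Mdh1 (Wdpcp), may share reads with it.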

How the data were processed

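Nuclear total RNA of sorted hippocampal nuclei was sequenced with a stranded kit. The authors deposited raw counts per gene, 1 table per fraction, made per the study's methods with HISAT2 2.1.0 on GRCm38 and featureCounts with an Ensembl annotation. Strand and multi-mapping settings are not given in the sources used here. No sample column was left unused, and mitochondrially encoded genes were not analysed here.

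Genes with low counts were removed (filterByExpr). CPM used TMM-scaled library sizes. edgeR 4.0.16 in R 4.3.3 fitted the 12 libraries of a fraction together for genotypes and all 24 for fractions and interactions, with the quasi-likelihood test and Benjamini-Hochberg adjustment over all genes tested. A gene was called at an adjusted p under 0.05 and a log2 fold change beyond 0.5 (beyond 1 between fractions). The contrast called the mean of the 3 knockouts averages their fold changes. DESeq2 1.42.0, other scaling, no filter, fewer libraries and a replicate block were alternatives. Scripts were tested on simulated data. Spans, exon lengths and near-identical copies (at least 95% identity over 200 bases) come from GENCODE M21. Replicates varied by a common coefficient of 0.0823 (NeuN+) and 0.124 (NeuN-) beyond counting error.

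Genes given with the value of every library were those called or with the smallest p-values, plus the highest per kilobase of each role. The members and lists were chosen with earlier results of these data known. Replicate libraries differed beyond sampling noise (chi-square per degree of freedom at least 5.66 for the closest pair), so none was counted as a repeat. Same-numbered libraries within a fraction did not deviate together throughout. Their mean correlations were -0.005 (NeuN+) and 0.046 (NeuN-), against 0.003 and -0.023 for other numbers. Between fractions all same-numbered correlations were above 0 (0.011 to 0.292, mean 0.111), against a mean of -0.055 for other numbers. The numbers were not taken to pair libraries, so the tests between fractions ignore any pool of nuclei that same-numbered libraries share. Whether the numbers pair the fractions was not settled.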

Additional observations from a re-analysis of the deposited data

How the results depend on the processing

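With each choice changed in turn, 397 values and counts stayed within 1.5 times or on their side of the threshold, 24 moved, and 0 reversed. The number of the 39 genes called in NeuN+ Ogg1-/- was 1, where 0.574% of all genes were called. It became 2 with a replicate block, 3 with only WT and Ogg1-/- in the fit and 8 with no minimum fold change. On the adjusted p alone, 1.67%, 2.87% and 1.1% of all genes passed in these settings. In NeuN+ DKO it was 3, and became 5 with no minimum, against 0.302% and 0.494% of all genes. For the mean of the knockouts in NeuN+ it was 0 and became 14 with no minimum, against 0.571% and 1.93% of all genes. Between WT fractions it was 11, where 21.3% of all genes were called higher and 21.6% lower. With no minimum the count between fractions became 37, where 72.4% of all genes passed. The interaction of the mean was 0 and became 1 by DESeq2, against 0.0358% and 1.27% of all genes. Leaving out 1 library at a time gave 0 to 2 in NeuN+ Ogg1-/-, 0 to 1 in NeuN+ DKO, 0 to 3 in the mean and 0 to 1 for the Mutyh-/- interaction, and moved the median of the 39 genes in NeuN- Mutyh-/- from -0.001 to between -0.042 and 0.05. For counts with the minimum fold, the shares of all genes without a library are not given here. Beyond the libraries left out and the minimum fold, the cause was not tested.

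On the adjusted p alone, the counts in NeuN+ nuclei (0, 8, 5 and 14 in Mutyh-/-, Ogg1-/-, DKO and their mean) were 6, 17, 15 and 17 by DESeq2, 7, 14, 12 and 14 with no filter, and 1, 12, 11 and 16 with the replicate block. The shares of all genes that passed, at first 0.641%, 1.1%, 0.494% and 1.93%, changed as well. They were 5.02%, 3.58%, 3.56% and 6.79% by DESeq2 and 3.05%, 1.43%, 1.2% and 2.81% with no filter. With the replicate block they were 0.494%, 1.67%, 1.12% and 2.27%. Within NeuN+ nuclei the replicate numbers were not shown to pair libraries, so a call gained under the block is no evidence of a stronger effect. With 3 libraries a group and adjusted p-values near 0.05, single calls rest on single libraries, most of all WT replicate 2. The medians without the genes on chromosomes 4 and 6, and without Gapdh, Aldoa, Eno1, Ldha, Pgam1 and Pgk1, were computed after seeing the data.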
